A study of Mus musculus with 18 samples.

Results

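Thymocytes that have finished selection leave the thymus through a small set of receptors and signalling proteins, and 8 genes of this machinery were followed in a map of microRNA (miRNA) contacts. The genes were S1pr1, Cd69, Klf2, Ccr7, Ccr9, Cxcr4, Gnai2 and Gnas, named for their known roles in thymocyte migration, with earlier results of these data known. They are 8 of the 49993 genes of the RefSeq gene table for assembly GRCm38.p6. A chimeric read was assigned to a gene when it lay on the gene's strand inside its span. The genes held 5213 of 1190995 chimeric reads, or 0.438%. Pooled over all 12 libraries, 81.4% of these 5213 reads carried a miRNA of the miR-181 family. Of the 1190995 reads, 741279 came from 3 wild-type libraries enriched for miR-181, where it was on 99.0% of all reads on average. The pooled share therefore does not set these genes apart, and shares without enrichment are given below.

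The assay was miR-eCLIP, in which UV light of 254 nm fixes RNA to the miRNA-binding protein Argonaute 2 (Ago2) before it is immunoprecipitated (IP). Ligation joins a miRNA to the RNA it was bound to, and 1 chimeric read therefore carries the miRNA's name and a genome position of the bound RNA. All mice were 6 weeks old and kept free of specific pathogens, and total thymocytes were used without sorting. Wild-type mice were labelled C57BL/6, and knockout mice carried the genotype label B6.Mirc14tm1.1Ankr and are titled miR181a/b-1-KO, a deletion of the gene pair for miR-181a-1 and miR-181b-1 that leaves the other miR-181 genes in place. Both genotypes were profiled with the Ago2 IP alone and with an added enrichment step for miR-181-5p, which gives 4 groups of 3 libraries. The 6 input samples of the series were not analysed here. The labels do not say whether the 3 libraries of a group came from separate mice, so p-values measure only the spread between these samples.

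Library totals ran between 43983 and 117849 chimeras in the wild-type Ago2 IP, between 52100 and 67639 in the knockout Ago2 IP, between 194628 and 293149 in the wild-type enriched group and between 6832 and 19264 in the knockout enriched group. The deleted miRNAs checked the labels: reads with a miR-181 miRNA made up 31.1% ± 1.09 of a wild-type Ago2 IP library and 1.38% ± 0.060 of a knockout one (SD, n = 3 each). After enrichment these shares were 99.0% ± 0.207 and 71.9% ± 1.24. All 11 thymocyte markers on the list had reads, with a summed level between 15414 and 18906 rpm in every library, where rpm is reads per 1000000 chimeric reads of the library. Markers of B cells, myeloid cells and red cells each summed to at most 57.9 rpm in any library, and of 6 markers of epithelium and stroma only Epcam had a read, with Foxn1, Krt5, Krt8, Col1a1 and Pdgfra at 0.

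S1pr1 encodes a receptor for sphingosine 1-phosphate, the lipid whose gradient draws mature thymocytes into the blood. Cd69, an early activation antigen, binds this receptor and takes it off the cell surface, and Klf2 is a transcription factor that switches S1pr1 on as thymocytes mature. Ccr7, Ccr9 and Cxcr4 are chemokine receptors that place thymocytes in the medulla and the cortex. Gnai2 encodes the inhibitory G-protein subunit through which these receptors signal, and Gnas encodes the stimulatory subunit that activates adenylyl cyclase. Members of a miRNA family share the seed, bases 2 to 8 of the mature miRNA, which pairs with the target.

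The mature sequences of the miRNAs that account for most reads on these genes are given from RefSeq (GRCm38.p6), 5′ to 3′ with the seed in capitals. The first set shows the miR-181 family, whose 4 members have 1 seed and first differ from miR-181a-5p after it, at position 9 in miR-181b-5p and miR-181d-5p and at position 11 in miR-181c-5p.
miR-181a-5p: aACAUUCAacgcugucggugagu
miR-181b-5p: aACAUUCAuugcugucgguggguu
miR-181c-5p: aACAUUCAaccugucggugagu
miR-181d-5p: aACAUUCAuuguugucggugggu
The second set shows other miRNAs met often: miR-16-5p at Gnas, miR-142a-3p at most of the genes, miR-17-5p and miR-20a-5p (1 seed) at Cd69, and let-7a-5p as 1 member of the let-7 family, which shares its seed and was met at Ccr7 and Cxcr4.
miR-16-5p: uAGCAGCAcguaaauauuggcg
miR-142a-3p: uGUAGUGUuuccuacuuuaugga
miR-17-5p: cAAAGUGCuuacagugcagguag
miR-20a-5p: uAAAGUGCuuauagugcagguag
let-7a-5p: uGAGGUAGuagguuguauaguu
Of 374 miRNA names in the data, 288 matched the RefSeq table, and these cover 99.2% of the reads on the 8 genes.

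The genes differed widely in how many chimeras they held. Over all 12 libraries Gnai2 (chr9:107614125-107635391, minus strand) had 2660 reads, Ccr7 (chr11:99144199-99155077, minus strand) 1133, Ccr9 (chr9:123767211-123783457, plus strand) 397 and Gnas (chr2:174284320-174346744, plus strand) 320. Cd69 (chr6:129267324-129275375, minus strand) had 240 reads, Klf2 (chr8:72319062-72321654, plus strand) 207, S1pr1 (chr3:115710433-115715055, minus strand) 174 and Cxcr4 (chr1:128588199-128592299, minus strand) 82. Per kilobase of gene span the order was Gnai2 with 125 reads, Ccr7 with 104, Klf2 with 79.8, S1pr1 with 37.6, Cd69 with 29.8, Ccr9 with 24.4, Cxcr4 with 20.0 and Gnas with 5.13. The span includes introns, so these densities do not rank transcript abundance.

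Reads on 6 of the 8 genes lay close to the 3′ end of the span. Within 1000 nt of that end were 97.3% of the reads of Ccr7, 85.8% of Cd69, 84.1% of Klf2, 77.8% of Gnas, 71.8% of S1pr1 and 56.1% of Cxcr4. The median over 3848 protein-coding genes with at least 50 reads was 5.37%, with an interquartile range from 1.47% to 17.1%. These genes were not matched for span length, and 1000 nt is a large part of a short span. The spans of Klf2, Cxcr4 and S1pr1 were 2593, 4101 and 4623 nt. Gnai2, at 3.87%, and Ccr9, at 1.76%, lay below that median. Whether a read lay in an exon, an intron or an untranslated region was not analysed here.

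**Figure D1:**
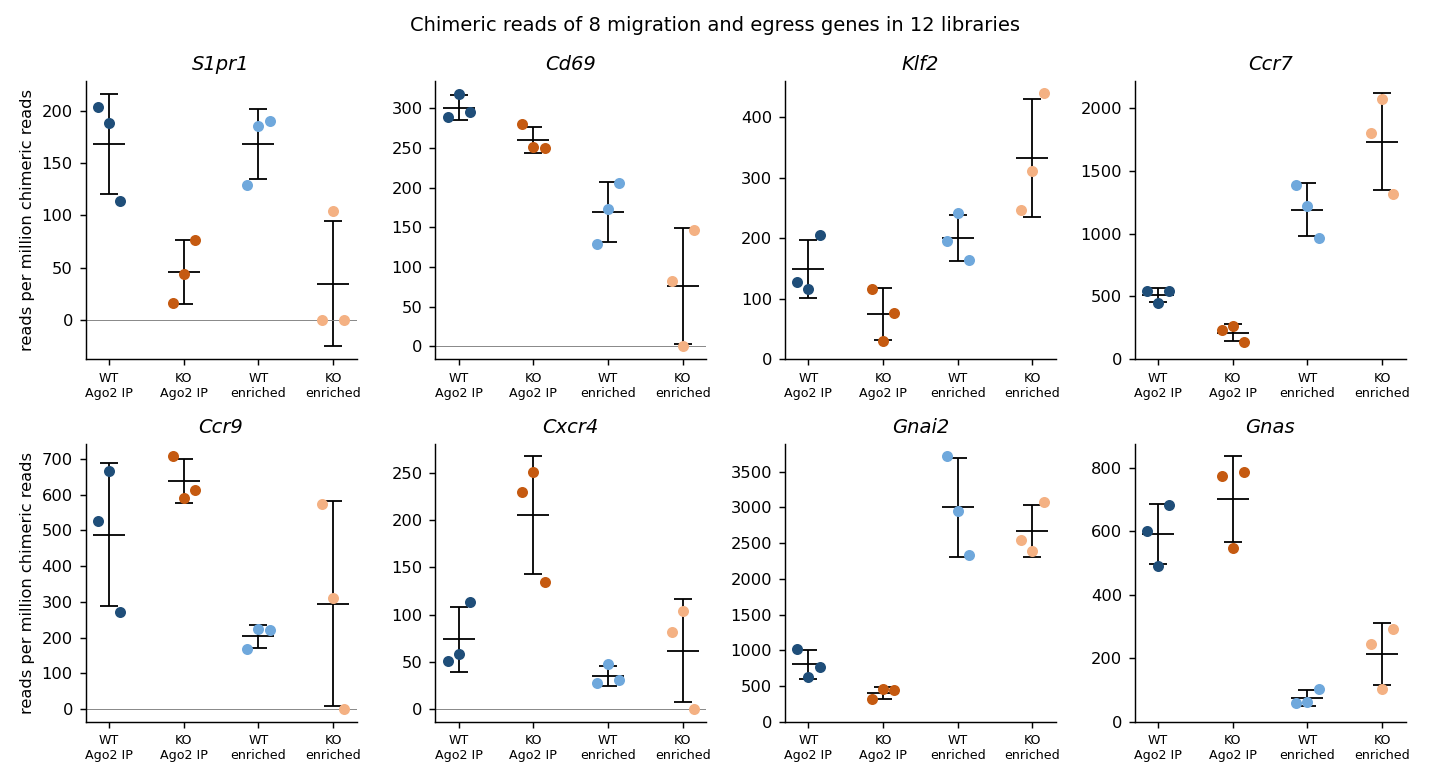
Chimeric reads of each gene in rpm (vertical axes, a separate scale for each gene) in the 4 groups. Points are the 3 libraries of a group, and the line and bar are their mean ± SD. Gnai2 and Ccr7 are lower in every knockout than in every wild-type Ago2 IP library, Cxcr4 is higher, and the knockout enriched values of S1pr1, Cd69 and Cxcr4 rest on 2, 2 and 3 reads.

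Knockout thymocytes had fewer Ago2 chimeras on Gnai2 and Ccr7 than wild-type thymocytes, and few or no miR-181 chimeras on any of the 8 genes. Of the 8, 5 had enough reads to be tested in the Ago2 IP. Gnai2 and Ccr7 fell, none rose, and Cd69, Ccr9 and Gnas did not pass the test. Over all genes tested 10.2% were called, 3.41% higher and 6.75% lower. The median log2 difference was -0.22 over the 5 genes and 0.02 over all genes tested. In a bulk sample, fewer cells of a type and less RNA per cell cannot be told apart, and neither can be told apart from fewer contacts on the same RNA.

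For Gnai2, the wild-type Ago2 IP libraries held 120, 43 and 34 reads and the knockout libraries 19, 31 and 23. These are 1018, 622.5 and 773 rpm against 313, 458 and 441 rpm, so that every knockout library lay below every wild-type library. The mean was 805 ± 199.7 rpm in the wild type and 404 ± 79.7 rpm in the knockout (SD, n = 3 each), a log2 difference of -1.07 (SE 0.22, adjusted p = 0.000405, edgeR quasi-likelihood test with Benjamini-Hochberg adjustment over all genes). Ccr7 held 64, 31 and 24 reads in the wild type and 14, 18 and 7 in the knockout. Its 3 wild-type libraries, at 543, 449 and 546 rpm, lay close together and all above the knockout libraries at 230, 266 and 134 rpm. The log2 difference of Ccr7 was -1.27 (SE 0.26, edgeR adjusted p = 0.000332). Ccr7 had enough reads for this test through its wild-type libraries.

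S1pr1, Klf2 and Cxcr4 had too few reads for the main test. S1pr1 held 24, 13 and 5 wild-type reads against 1, 3 and 4 knockout reads, or 169 ± 48.1 against 45.9 ± 30.2 rpm. The groups did not overlap, and the pooled knockout level was 0.244 of the wild-type level (exact 95% counting interval 0.0988 to 0.525). Klf2, which acts upstream of S1pr1, held 15, 8 and 9 reads against 7, 2 and 4, a pooled ratio of 0.520 with an interval from 0.250 to 1.02 that includes equality. Klf2 in rpm gave 127, 116 and 205 in the wild type and 115, 29.6 and 76.8 in the knockout, so that the groups were separated by less than 1 read. Cxcr4 went the other way, with 6, 4 and 5 wild-type reads against 14, 17 and 7 knockout reads. The mean level of Cxcr4 was 205 ± 62.4 rpm in the knockout against 74.2 ± 34.4 rpm in the wild type, without overlap. The nearest libraries of Cxcr4 were at 114 rpm from 5 wild-type reads and 134 rpm from 7 knockout reads. Its pooled ratio, from the summed reads, was 3.24 (interval 1.74 to 6.34).

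An exact two-sided permutation test of 3 against 3 libraries cannot give less than p = 0.1, and each of these 3 genes gave p = 0.1. With no filter on low counts, edgeR called S1pr1 lower (log2 -2.09, adjusted p = 0.00488) and Cxcr4 higher (log2 1.55, adjusted p = 0.0422), while Klf2 was not called (log2 -1.04, adjusted p = 0.572). Of 13993 genes at this setting 145 were called, 11 higher and 134 lower. In all, the rpm of 6 of the 8 genes did not overlap between genotypes, and 3 of the 6 lay below the filter. Among the genes that passed the filter 25.9% did not overlap, and no such share was computed for genes below it. Cd69 was the sixth, and its difference was small: 34, 22 and 13 reads against 17, 17 and 13 gave 301 ± 15.7 against 260 ± 16.9 rpm and a log2 difference of -0.22 (SE 0.26, edgeR adjusted p = 0.709). Ccr9 (62, 46 and 12 reads against 43, 40 and 32) had overlapping groups and a log2 difference of 0.28 (SE 0.22, edgeR adjusted p = 0.502). Gnas (71, 34 and 30 reads against 47, 37 and 41) also overlapped, at 0.22 (SE 0.21, edgeR adjusted p = 0.583).

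The reads were next split by miRNA. In the wild-type Ago2 IP a miR-181 miRNA was on 124 of 197 reads of Gnai2, 13 of 32 of Klf2, 46 of 119 of Ccr7, 16 of 42 of S1pr1 and 5 of 15 of Cxcr4. The share was lower on 25 of 120 reads of Ccr9, 14 of 69 of Cd69 and 7 of 135 of Gnas. In the knockout, miR-181 remained on 7 of 73 reads of Gnai2, 2 of 39 of Ccr7 and 2 of 13 of Klf2. The other 5 genes had none, which allows a share of up to 37.5% of the 8 reads of S1pr1, 7.89% of the 38 of Cxcr4, 6.38% of the 47 of Cd69, 2.61% of the 115 of Ccr9 and 2.4% of the 125 of Gnas.

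Mean shares over the 3 wild-type libraries were 61.8% ± 11.4 for Gnai2, 45.0% ± 26.2 for Klf2, 41.0% ± 12.4 for S1pr1, 37.6% ± 7.45 for Ccr7, 34.4% ± 15.03 for Cxcr4, 22.0% ± 2.83 for Ccr9, 19.0% ± 4.14 for Cd69 and 6.23% ± 3.60 for Gnas. Neighbours in this order from Klf2 to Cxcr4 differed by less than their spread. For each of the 8 genes every knockout library lay below every wild-type library, with an exact two-sided permutation p = 0.1, the smallest that 3 against 3 allows. The same held for 85.8% of the 1609 tested genes with a read in each of these libraries, so 8 of 8 is close to what all genes show. The difference of Klf2 was -31.9 percentage points, and -16.9 without the wild-type library 2, where 6 of 8 reads carried miR-181. Over all reads the wild-type share was 31.1% and the knockout share 1.38%.

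**Figure D2:**
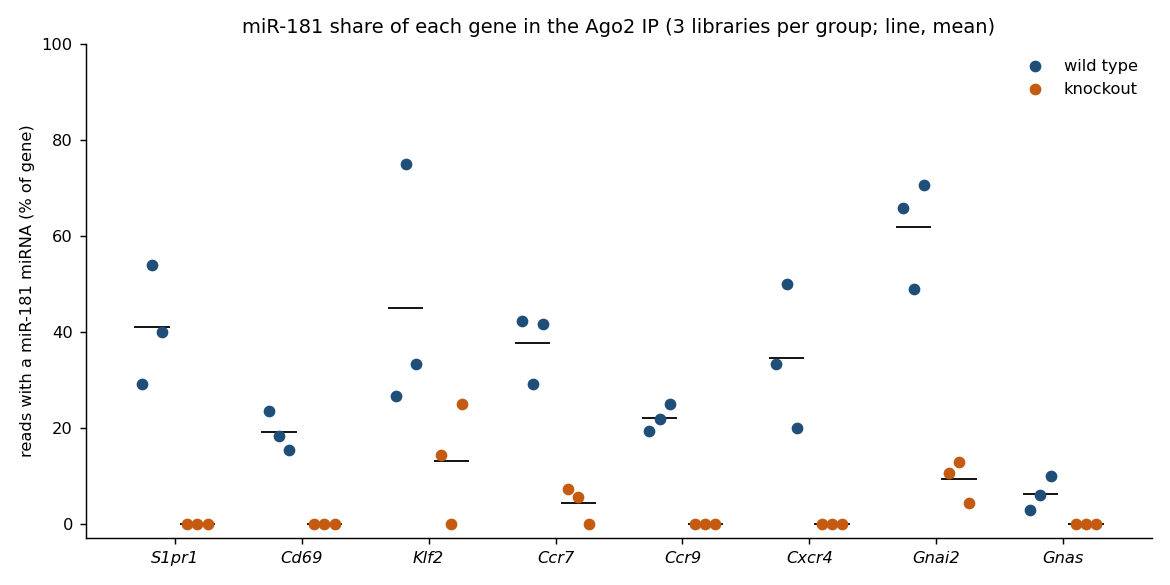
Share of each gene's chimeric reads that carry a miR-181 miRNA (vertical axis, %), in the 3 wild-type and 3 knockout Ago2 IP libraries. Points are libraries and lines are means. Every knockout point of a gene lies below all of its wild-type points, and 5 genes have no miR-181 read in the knockout.

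Reads with any other miRNA were then compared alone, scaled to the library's reads with other miRNAs. Ccr7 fell here as well, from 37, 22 and 14 reads to 13, 17 and 7, or from 460 ± 10.4 to 203 ± 60.5 rpm of these reads (log2 -1.14, SE 0.29, edgeR adjusted p = 0.0103). Over all genes tested 2.29% were called, 0.788% higher and 1.5% lower. The call on Ccr7 was lost with DESeq2 (adjusted p = 0.394), with no filter on low counts (edgeR adjusted p = 0.106), without the knockout library 1 (adjusted p = 0.0511) and without the knockout library 3 (log2 -0.94, adjusted p = 0.149). Gnai2, with 73 such wild-type and 66 such knockout reads, differed by -0.30 (SE 0.26, edgeR adjusted p = 0.726).

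Of the genes outside this test, S1pr1 had 17, 6 and 3 reads with other miRNAs in the wild type and 1, 3 and 4 in the knockout, and Cxcr4 had 4, 2 and 4 against 14, 17 and 7. Both were without overlap on the scaled values, S1pr1 lower and Cxcr4 higher in the knockout, with an exact permutation p = 0.1 each. The separation was narrow. For Cxcr4 it was less than 1 read, with 134.3 in wild-type library 3 against 136.3 in knockout library 3. For S1pr1 the nearest values were 100.7 from 3 wild-type reads and 77.9 from 4 knockout reads. Without a filter neither was called (edgeR adjusted p = 0.415 for S1pr1 and 0.275 for Cxcr4). Cd69, with 55 wild-type and 47 knockout reads, and Ccr7 did not overlap either. Groups did not overlap in 17.9% of the genes tested, which leave out S1pr1 and Cxcr4. Beside these values, the summed thymocyte markers were between 17552 and 18906 rpm in the wild-type and between 15854 and 16335 rpm in the knockout Ago2 IP libraries. The part of this shift in the results was not tested.

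Which miRNAs the genes met in the Ago2 IP differed from gene to gene, and it is described over the 6 libraries without a test. Over all reads, miR-142a-3p made up 33.0%, the let-7 family 13.7%, the family of miR-17, miR-20 and miR-93 11.99%, and the family of miR-15 and miR-16 5.48%. Cd69 stood out for the miR-17 family, with 39 of 116 reads (33.6%), ahead of miR-142a-3p with 18.1% and of the seed shared by miR-25-3p and miR-32-5p with 10.3%. The miR-17 family was on 22 wild-type and 17 knockout reads of Cd69. Ccr7 was met by let-7 on 27.8% of its 158 reads and by miR-16-5p and its relatives on 20.9%. Both families had fewer reads on Ccr7 in the knockout, let-7 with 12 against 32 and the miR-16 family with 12 against 21.

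On Cxcr4, miR-142a-3p made up 30.2% of 53 reads and let-7 24.5%. The knockout held more of both, with 14 reads of miR-142a-3p against 2 and 10 of let-7 against 3. Ccr9 had the most mixed set, 51 miRNAs over all libraries, led by miR-142a-3p with 27.7% of 235 reads. S1pr1 carried miR-142a-3p on 13 of 50 reads, the miR-17 family on 9 and miR-155-5p on 4. Klf2 carried miR-142a-3p on 12 of 45 reads, and no let-7 read.

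**Figure D3:**
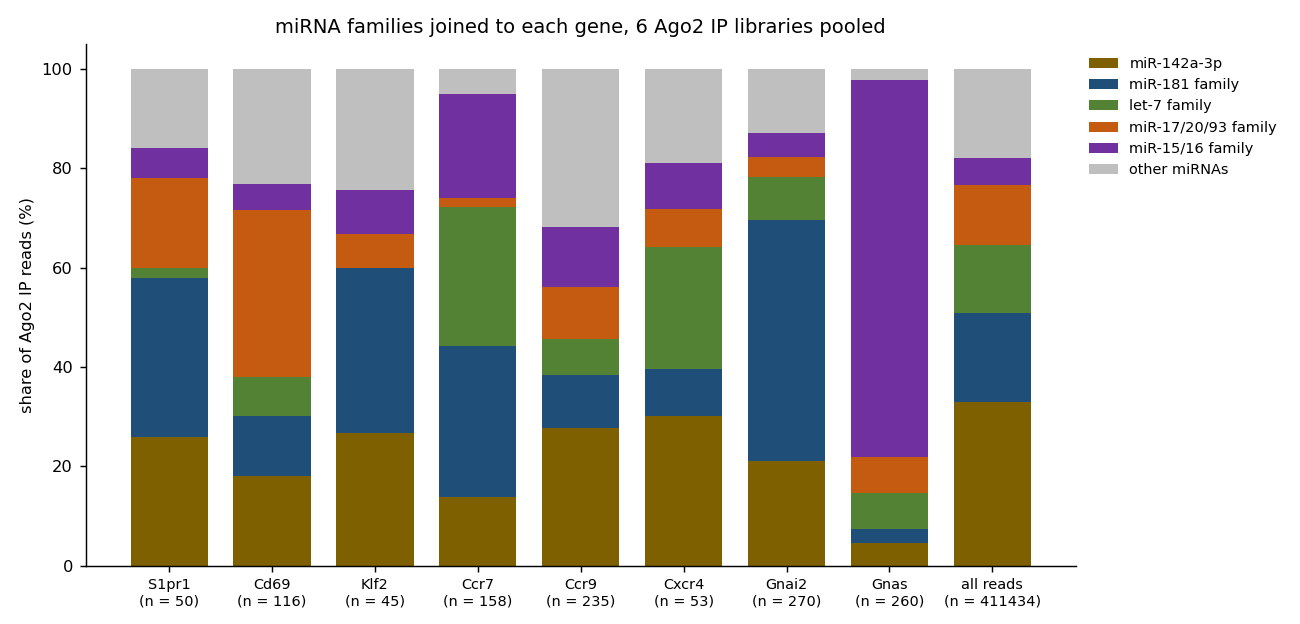
Share of reads (vertical axis, %) by miRNA family for each gene and for all reads, with the 6 Ago2 IP libraries of both genotypes pooled and the number of reads under each bar. Families are groups of miRNAs with 1 seed. The miR-15/16 family fills 75.8% of the bar of Gnas against 5.48% of all reads, and the miR-17/20/93 family 33.6% of that of Cd69 against 11.99%.

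Gnas was dominated by a single miRNA. miR-16-5p was on 52, 27 and 19 of its 71, 34 and 30 wild-type Ago2 IP reads and on 34, 30 and 35 of its 47, 37 and 41 knockout reads. Its share ran from 63.3% to 85.4% in these libraries, against 3.95% to 5.68% of all reads in the same libraries. Most of it lay at 1 place, chr2:174346241-174346399 on the plus strand, where 194 of 214 reads were miR-16-5p. Among 15045 sites with a miR-16-5p read in the Ago2 IP this site ranked 1, with 186 reads. It had 94 wild-type and 100 knockout reads, a log2 difference of 0.32 (SE 0.26, edgeR adjusted p = 0.367).

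A site here is a run of same-strand reads of the 12 libraries whose neighbouring positions lie at most 20 nt apart, numbered 5′ to 3′ within a gene. The 8 genes held 349 sites, of which 33 had at least 10 reads. Which end of the sequenced fragment the deposited position marks is not given in the sources used here, so a site locates a contact only to within a fragment. Pooled over all 12 libraries, Gnai2, Ccr7 and Gnas each had most of their reads in 1 site. In the Ago2 IP, site 4 of Gnai2 held 124 of 197 wild-type reads but only 8 of 73 knockout reads. Site 2 of Ccr7 held 102 of 119 and 27 of 39, and site 2 of Gnas 94 of 135 and 100 of 125. With reads of 1 library, position and miRNA counted once, site 4 held 528 of 800 reads of Gnai2, and site 2 473 of 552 of Ccr7. Ccr9 spread its 397 reads over 124 sites, and its largest held 62.

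Site 4 of Gnai2 (chr9:107615612-107615720, minus strand) held 2378 reads, 89.4% of the gene, and 99.6% of them carried miR-181. It lies 1487 to 1595 nt from the 3′ end of the span. Among sites with miR-181 reads it ranked 10 of 44484 in the wild-type Ago2 IP and 12 of 241385 in the wild-type enriched libraries. The wild-type Ago2 IP libraries had 76, 24 and 24 reads there and the knockout libraries 2, 4 and 2. That is 513 ± 151.4 against 43.5 ± 13.8 rpm, a log2 difference of -3.65 (SE 0.43, adjusted p = 5.07e-13, edgeR over sites), where 36.3% of 251 sites were called, 10.8% higher and 25.5% lower. Site 4 passed the filter only through its wild-type reads, so this call adds nothing to the counts. Elsewhere in Gnai2 the wild type had 73 reads and the knockout 65, and 65 reads in each carried another miRNA. Within site 4 the knockout retained 7 miR-181 reads, 3 of miR-181a-5p, 1 of miR-181b-5p and 3 of miR-181d-5p.

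Site 2 of Ccr7 (chr11:99144541-99144929, minus strand) held 1050 reads, 92.7% of the gene, and ranked 52 and 32 in those lists. In the Ago2 IP it had 56, 25 and 21 wild-type reads and 8, 14 and 5 knockout reads, a log2 difference of -1.69 (SE 0.34, edgeR adjusted p = 9.60e-06). This site also passed the filter through its wild-type reads, so its call adds nothing to the counts. Unlike Gnai2, its Ago2 IP reads were mixed, with miR-181 on 45 of 102 in the wild type, and miR-16-5p on 16. Within the site, Ago2 IP reads with miR-181 and those with other miRNAs also differed in position. In a window from 135 to 116 nt upstream of the most used position, chosen after the profile was seen, 1 of 21 wild-type and none of 13 knockout Ago2 IP reads carried miR-181, while miR-16-5p had 8 and 6 and let-7 6 and 3. In a window from 25 nt upstream to 5 nt downstream, 18 of 22 wild-type reads carried miR-181, and the knockout had no read.

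**Figure D4:**
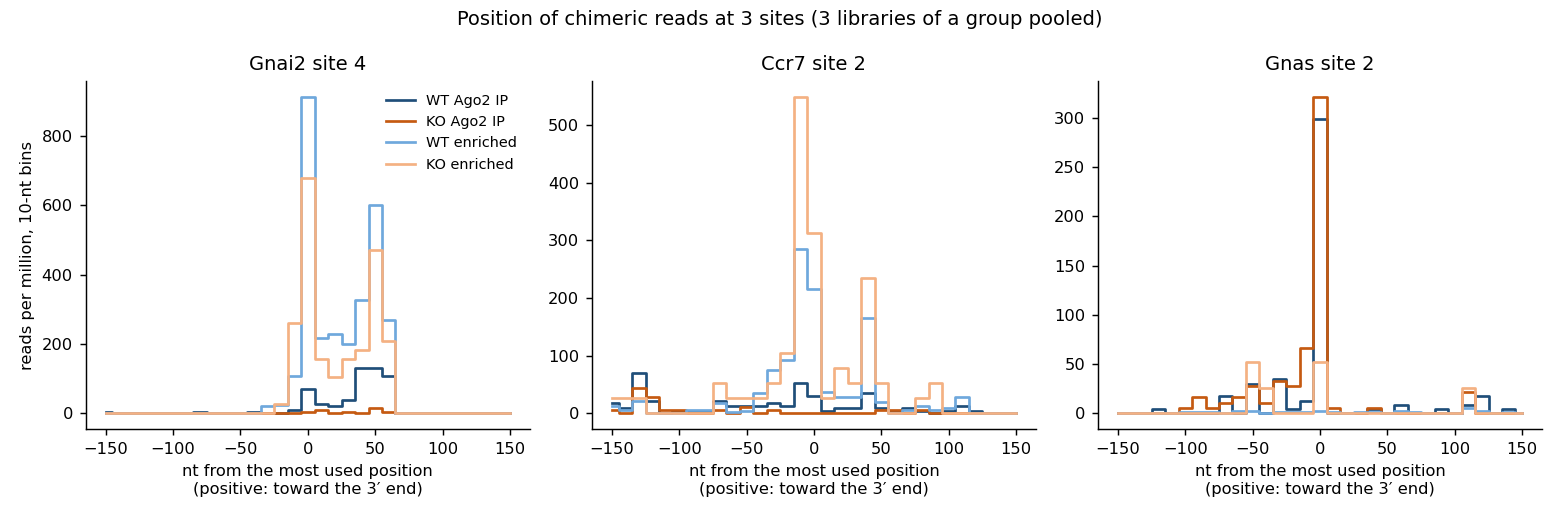
Chimeric reads around the most used position of site 4 of Gnai2, site 2 of Ccr7 and site 2 of Gnas, in bins of 10 nt (horizontal axis, nt from that position, positive toward the 3′ end of the gene; vertical axis, rpm over the 3 pooled libraries of a group). At Gnai2 and Ccr7 the knockout Ago2 IP line lies near 0 at the center where the enriched lines peak. The wild-type Ago2 IP line is highest elsewhere. At Gnai2 it has 16 reads in the center bin and 30 in each of the bins 40 and 50 nt downstream. At Ccr7 it has 12 in the bin 10 nt upstream and 16 in the bin 130 nt upstream. At Gnas both Ago2 IP lines peak together.

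The other genes had weaker leading sites. Site 2 of S1pr1 (chr3:115710588-115710791, minus strand) held 87 reads, 80 of them with miR-181, and had 18 wild-type and 1 knockout Ago2 IP reads. The reads of miR-155-5p on this gene were few, and 3 of 4 lay at this site. Klf2 had 5 sites with at least 10 reads in the 3′ portion of its span, and site 4 (chr8:72320963-72321121, plus strand) led with 81 reads, 17 of them from the wild-type and 1 from the knockout Ago2 IP. Cd69 shared its reads between site 2 (chr6:129267813-129268081, minus strand) with 101 and site 3 (chr6:129267442-129267775, minus strand) with 64. At site 2 of Cd69 the 25 knockout Ago2 IP reads stood beside 28 wild-type ones, of which 5 carried miR-181. The 2 sites of Cxcr4 with at least 10 reads held 15 and 11. None of these sites passed the filter for the test between genotypes. When every site with at least 10 reads was tested, edgeR called site 2 of S1pr1 (log2 -3.62, adjusted p = 0.00250) and site 4 of Klf2 (log2 -3.55, adjusted p = 0.00357) lower in the knockout Ago2 IP, and no other of these sites. Of 3197 sites at this setting 518 were called, 48 higher and 470 lower. In the enriched libraries, at this setting, edgeR called site 2 of S1pr1 (adjusted p = 0.0104) and site 2 of Cd69 (adjusted p = 0.0401) lower, with 0 knockout reads against 68 and 48. Of 7209 sites 472 were called there, 39 higher and 433 lower, and the median log2 difference of all was -2.08. Each called site named here passed this filter through its wild-type reads, so the calls add nothing to the counts.

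Enrichment for miR-181 raised the share of Gnai2 and Ccr7 among chimeras of wild-type thymocytes and lowered that of Gnas and Ccr9. Klf2 was also called higher, but its groups overlapped in rpm and its call depended on the setting. Of the 8, 7 were tested against the wild-type Ago2 IP, 3 rose, 2 fell, and Cd69 and S1pr1 did not pass. Over all genes tested 36.1% were called, 19.3% higher and 16.8% lower, and 53.4% did not overlap, so that calls are common here. The median log2 difference was 0.23 over the 7 genes and -0.04 over all genes tested. In every wild-type enriched library at least 70.6% of each gene's reads carried miR-181.

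Gnai2 had 1091, 747 and 454 reads in the wild-type enriched libraries, or 3000.3 ± 696 rpm, all above the Ago2 IP libraries (log2 2.22, SE 0.18, edgeR adjusted p = 6.55e-14). Ccr7 had 406, 310 and 188 reads, or 1191 ± 211 rpm, again above every Ago2 IP library (log2 1.58, SE 0.17, edgeR adjusted p = 4.96e-10). Klf2 had 57, 61 and 32 reads, or 199.8 ± 38.4 rpm, and overlapped the Ago2 IP libraries (log2 0.89, SE 0.28, edgeR adjusted p = 0.0127). The call on Klf2 was lost with DESeq2 (adjusted p = 0.0913), with library sizes alone (edgeR adjusted p = 0.134), without the wild-type Ago2 IP library 1 (adjusted p = 0.110) and without library 2 (adjusted p = 0.0557).

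Gnas had 17, 16 and 20 reads, or 74.6 ± 24.5 rpm, far below its Ago2 IP libraries (log2 -2.65, SE 0.24, edgeR adjusted p = 4.95e-12). Ccr9 had 49, 57 and 43 reads, or 204 ± 32.2 rpm, and was lower without overlap (log2 -0.98, SE 0.22, edgeR adjusted p = 0.000405). Cd69 had 38, 44 and 40 reads (log2 -0.49, SE 0.24, edgeR adjusted p = 0.108) and S1pr1 38, 47 and 37 (log2 0.23, SE 0.27, edgeR adjusted p = 0.544). Cxcr4, below the filter, had 8, 12 and 6 reads. The sign of S1pr1 turned with library sizes alone, to -0.12.

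At single sites the enrichment raised site 4 of Gnai2 (log2 1.68, SE 0.25, edgeR adjusted p = 1.17e-06) and site 2 of Ccr7 (log2 0.60, SE 0.24, edgeR adjusted p = 0.0358), where 56.3% of 1200 sites were called, 30% higher and 26.3% lower. Repeated reads, those with 1 position and 1 miRNA within a library, bear on both values. Of the reads of Gnai2 69.9% were such repeats, of Ccr7 51.3%, and of Cxcr4 none. With repeats counted once, site 4 of Gnai2 was at 0.21 (edgeR adjusted p = 0.335) and site 2 of Ccr7 turned to -0.41 (edgeR adjusted p = 0.0488). Counting once takes more reads from the deeper enriched libraries. Repeats were 27.9% to 34.1% of these, against 3.42% to 4.72% of the wild-type Ago2 IP libraries. The call on Ccr7 was also lost with DESeq2 (adjusted p = 0.130), without the wild-type Ago2 IP library 2 (log2 0.36, adjusted p = 0.353) and without library 3 (log2 0.42, adjusted p = 0.195). The miR-16 site of Gnas fell (log2 -5.02, SE 0.38, edgeR adjusted p = 5.88e-12), as did sites 2 and 3 of Cd69 (log2 -1.64, SE 0.40, and -1.92, SE 0.42, edgeR adjusted p = 0.000956 and 0.000295). These sites of Gnas and Cd69 passed the filter through their Ago2 IP reads. Both calls on Cd69 were lost when every site with at least 10 reads was tested (adjusted p = 0.117 and 0.0725), while sites 4, 6 and 7 of Ccr9 were then called lower (edgeR adjusted p = 0.0163, 0.0473 and 0.00746). Of 8894 sites at this setting 2464 were called, 1465 higher and 999 lower.

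The 2 main miR-181 miRNAs were not used alike. At site 4 of Gnai2 miR-181b-5p made up 38.4% of the 2152 wild-type enriched reads with miR-181a-5p or miR-181b-5p (95% Wilson interval 36.4% to 40.5%). This interval takes repeated reads as independent. By library the share was 42.0%, 34.3% and 36.4%, against 17.3%, 18.3% and 20.3% over all sites of the same libraries. Of 470 sites with at least 100 such reads, 32 had a higher share, and the median was 9.03%. Counted once per position the share was 45.6%, with 15 of 215 sites higher and a median of 18.02%. Within the site, windows chosen after the profile was seen gave 53.6% of 756 reads around the most used position and 28.5% of 884 reads between 35 and 64 nt downstream. Repeats were kept in these windows, which in the wild-type Ago2 IP gave 37.5% of 16 reads and 31.7% of 82 reads. In the wild-type Ago2 IP the share was 31.9% of 113 reads at this site and 22.9% over all sites. Site 2 of Ccr7 had 11.1% of 844 reads, and 23.2% of 297 reads counted once per position.

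In the knockout, the enriched libraries were small, and 3 reads in the smallest correspond to 439 rpm. Gnai2 still had 31, 46 and 21 reads and Ccr7 22, 40 and 9, nearly all with miR-181. Against the knockout Ago2 IP, where 4 of the genes were tested and 21.4% of all genes were called (15.6% higher, 5.8% lower), Gnai2 rose (log2 2.83, SE 0.25, edgeR adjusted p = 1.14e-21), Ccr7 rose (log2 3.25, SE 0.31, edgeR adjusted p = 3.24e-19) and Gnas fell (log2 -1.73, SE 0.48, edgeR adjusted p = 0.00317). The call on Gnas rested on 7 enriched reads and was lost with repeats counted once (log2 -0.88, edgeR adjusted p = 0.263) and without the knockout enriched library 2 (log2 -1.34, adjusted p = 0.145). Ccr9 was not called (log2 -0.73, SE 0.42, edgeR adjusted p = 0.223), except without the knockout Ago2 IP library 2 (log2 -1.03, adjusted p = 0.0432).

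Between genotypes within the enriched libraries none of the 7 genes tested was called by edgeR, where 5.5% of all genes were (2.1% higher, 3.4% lower). Gnai2, S1pr1 and Cd69 had an unadjusted p below 0.05, and DESeq2 called none of the 4 for which it gave an adjusted p. Gnai2 was at -0.52 (SE 0.21, unadjusted p = 0.0192, adjusted p = 0.181 in edgeR). Its value depended on repeated reads. With repeats counted once Gnai2 was at 1.105 (edgeR adjusted p = 5.49e-06) and site 4 at 0.90 (edgeR adjusted p = 0.000571), higher in the knockout. Repeats made up 27.9% to 34.1% of a wild-type enriched library and 5.84% to 7.91% of a knockout one. Counting once thus takes more reads from the deeper wild-type libraries. The part of depth in the values counted once was not tested. With no filter Gnai2 was called lower (log2 -1.15), where 283 of 15451 genes were called, 27 higher and 256 lower. Gnai2 was also called without the knockout enriched library 2 (log2 -0.85, adjusted p = 0.0360). Ccr7 was at 0.32 (SE 0.23, edgeR adjusted p = 0.515), with repeats counted once at 1.07 (edgeR adjusted p = 0.000377), and without the wild-type enriched library 1 at 0.58 (adjusted p = 0.0435). Its sign turned without the knockout enriched library 2, to -0.27. The main sites of Gnai2 and Ccr7 were not called either, at -0.45 (SE 0.23, edgeR adjusted p = 0.179) and 0.50 (SE 0.27, edgeR adjusted p = 0.196), where 16.4% of 805 sites were called, 7.7% higher and 8.7% lower. Site 4 of Gnai2 was called lower when every site with at least 10 reads was tested (log2 -1.61) and without each of 3 enriched libraries in turn, wild-type 3 and knockout 2 and 3 (log2 -0.63, -0.97 and -0.94). Site 2 of Ccr7 was at 0.83 with repeats counted once (edgeR adjusted p = 0.00529). S1pr1 and Cd69 had 2 knockout reads each against 122, a pooled ratio of 0.317 with a counting interval from 0.0380 to 1.17, and unadjusted p of 0.0333 and 0.0337 in edgeR. The remaining miR-181 at site 4 of Gnai2 included more of the members that were not deleted: miR-181c-5p had 14 and miR-181d-5p 4 of 86 knockout enriched reads, against 7 and 1 of 2160 in the wild type.

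Enrichment relative to the Ago2 IP was tested for a difference between genotypes in 7 of the genes, and edgeR called only Ccr7, with a log2 difference of 1.40 (SE 0.36, edgeR adjusted p = 0.0146), where 2.47% of all genes were called, 2.03% higher and 0.435% lower. Ccr7 went from 210.3 rpm in the Ago2 IP to 1733 rpm after enrichment in the knockout, and from 513 to 1191 rpm in the wild type. The call was lost with no filter on low counts (log2 1.08, edgeR adjusted p = 0.449), without the wild-type Ago2 IP library 1 (adjusted p = 0.0747), without the knockout Ago2 IP library 3 (adjusted p = 0.107) and without the knockout enriched library 2 (adjusted p = 0.180). Gnai2 had 0.34 (SE 0.31), and with repeats counted once 1.75 (edgeR adjusted p = 5.19e-07). The limit of counting once in deeper libraries, given above, holds for this value too. The other differences were Klf2 1.12 (SE 0.67), Cd69 -1.89 (SE 0.88), Gnas 0.64 (SE 0.63), S1pr1 -0.10 (SE 1.28) and Ccr9 -0.02 (SE 0.51).

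**Figure D5:**
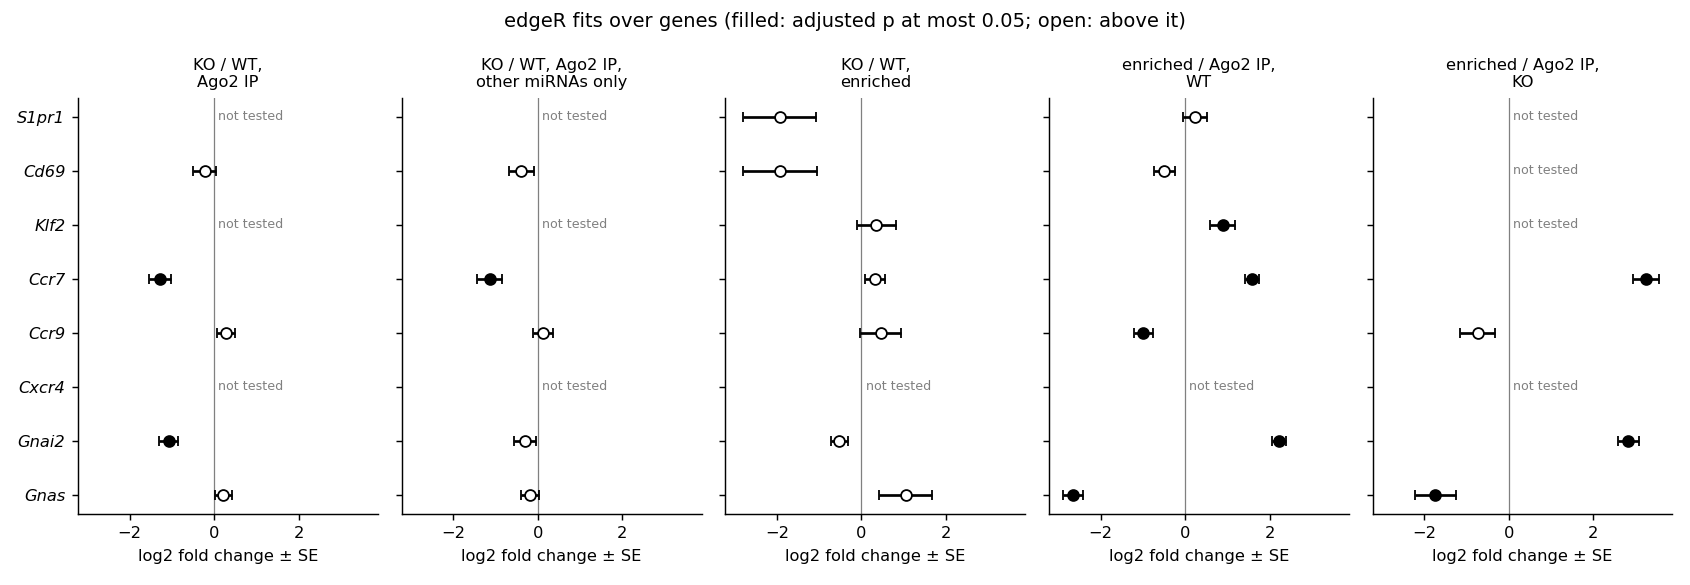
Log2 fold changes ± SE (horizontal axis) of the genes in 5 edgeR comparisons, with filled points for an adjusted p of at most 0.05. Gnai2 and Ccr7 lie left of 0 in the Ago2 IP and right of 0 on enrichment in both genotypes, and only Ccr7 is called when reads of other miRNAs are used alone. Genes below the filter are marked as not tested.

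The 49 other genes of thymocyte migration on the list were counted in the same fits. Between genotypes in the Ago2 IP 19 were tested, 1 fell and none rose, with a median log2 difference of -0.0010 against 0.02 over all genes tested. The 1 was Klf3, a relative of Klf2, with 217 wild-type and 99 knockout reads (log2 -0.79, SE 0.20, edgeR adjusted p = 0.00488). Klf3 also fell among reads of other miRNAs (log2 -0.92, SE 0.21, edgeR adjusted p = 0.00147). In the enriched libraries 22 were tested and Rhoh, a GTPase of blood cells, fell (log2 -0.87, SE 0.27, edgeR adjusted p = 0.0499).

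On enrichment in the wild type 28 of the list were tested, 5 rose and 6 fell, with a median of -0.07 against -0.04 over all genes. Grk2, a kinase that desensitizes receptors such as those above, rose by 1.80 (SE 0.22, edgeR adjusted p = 7.32e-09). Selplg, a ligand of selectins, rose by 1.90 (SE 0.24, edgeR adjusted p = 2.24e-08). Mob1a, a partner of the Mst kinases, fell, at -1.80 (SE 0.31, edgeR adjusted p = 7.88e-06). In the knockout 13 were tested, with Selplg and Grk2 higher and 1 other gene lower, and none of 25 differed in enrichment between genotypes.

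The genes with the most similar log2(rpm + 1) across the 12 libraries, among 3847 genes, were Atl3 for Gnai2 (Pearson r = 0.979), Rbm38 for Ccr7 (0.976), Mau2 for Gnas (0.954), Fbxo33 for S1pr1 (0.984), Cytip for Cd69 (0.991), Zfp809 for Klf2 (0.928), Zmym2 for Ccr9 (0.992) and Mob3a for Cxcr4 (0.972). These correlations share the 4 groups and the libraries' depth and miR-181 content, and they are given as a description.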

How the data were processed

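The deposited files list chimeric reads, 1 line for a count of 1 read at a position 1 nt wide with its miRNA and strand. These counts were made by the authors and not scaled. The submitters' processing notes name mm10, GRCm38.p6, Bowtie2 2.4.5, SAMtools 1.11, STAR 2.7.10, UMI-tools 1.1.1 and bedtools 2.30.0 without roles. All lines were used. Strands came from the RefSeq promoter table for 4 genes and from the strand with more reads for S1pr1, Cd69, Ccr7 and Gnai2, a rule that matched the table for 3187 of 3265 genes (97.6%). Counts per gene and site were compared with edgeR 4.0.16 (TMM, filterByExpr with a minimum count of 10, library size the total chimeric reads, quasi-likelihood test) with calls at adjusted p of 0.05 or less. Each fit used its own groups and the difference of enrichments all 12 libraries. The fits were tested on simulated data. DESeq2 1.42.0 (R 4.3.3), library sizes alone, other filters, repeats counted once and libraries left out were alternatives. Shares and rpm were compared by exact permutation tests (scipy 1.17.1). Intervals are 95% and cover counting error only, as does the floor of 3 reads.

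The named genes were the 8 members, up to 6 listed genes with the smallest p in a comparison among those called, sites with at least 10 reads, and the nearest genes by correlation. Members and lists were chosen with earlier results of these data known. The labels do not say whether equal library numbers mark a shared source, and the libraries were not treated as paired: deviations of same-numbered libraries correlated between -0.04 and 0.12, above 0.1 in 1 of 12 pairs.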

Additional observations from a re-analysis of the deposited data

Results flagged for a closer look

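The enrichment of Ccr7 over the Ago2 IP differed between genotypes by 1.40 on the log2 scale, by a test of the difference itself (edgeR interaction term, adjusted p = 0.0146). As given above, this call was lost with no filter on low counts and when certain single libraries were left out. Chimeric reads on the strand opposite to the gene, which entered only an alternative setting, were found in 3 of the 8 spans. The span of Cxcr4 held 11, or 11.8% of the reads of both strands, all with miR-181 and 10 of them in wild-type enriched libraries. The span of Ccr9 held 7, of which 5 carried miR-181, and it overlaps Gm17021. The span of Gnas held 4, and it overlaps Gnasas1 and Gm30189.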

How the results depend on the processing

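Over 592 alternative values of 47 log2 differences, 528 kept their direction and their side of the threshold, 20 lost a call, 12 gained one and 32 changed sign. The falls of Gnai2 and Ccr7 in the knockout Ago2 IP kept direction and call. The miR-181 shares kept their direction in 72 alternatives, with a test too small to make a call. The cause of the changes below was not tested.

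With DESeq2 the calls numbered 58 rather than 164 between genotypes in the Ago2 IP (5 higher and 53 lower rather than 55 and 109), 8 rather than 32 for other miRNAs, 72 rather than 118 in the enriched libraries (41 higher rather than 45) and 684 rather than 1134 on wild-type enrichment. The interaction of Ccr9 was then 0.068. With library sizes alone the interaction gave 85 calls rather than 51, the median of all genes moved from -0.04 to -0.39 on wild-type enrichment, and the split of calls moved from 606 higher and 528 lower to 389 and 1063, and from 45 and 73 to 75 and 34 between genotypes in the enriched libraries. For sites on enrichment it moved from 360 and 316 to 655 and 256, for sites between genotypes from 27 and 64 to 43 and 62 in the Ago2 IP and from 62 and 70 to 75 and 55 in the enriched libraries, and for the interaction from 42 and 9 to 82 and 3. On knockout enrichment 129 higher and 48 lower became 122 and 103, with DESeq2 114 and 15, and without a filter 105 and 160. Gene values that changed sign there were S1pr1 on enrichment (-0.12), the interactions of S1pr1 (0.35) and Ccr9 (0.43), and site 2 of S1pr1 (0.25) and site 4 of Klf2 (0.087) on enrichment.

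Without a filter the calls were 283 in the enriched libraries, 18 for the interaction and 20 for other miRNAs, and Klf2 (-0.27), Ccr9 (-0.16) and Ccr7 (-0.30) changed sign in the enriched libraries. Testing every site with at least 10 reads gave 518 calls in the Ago2 IP, 472 in the enriched libraries and 2464 on enrichment, with site 2 of Ccr7 at -0.65 between enriched genotypes and site 2 of S1pr1 (0.24) and site 4 of Klf2 (0.071) on enrichment. Repeats counted once gave 435 site calls on enrichment, turned Gnai2 (1.105) and its site 4 (0.90) between enriched genotypes, site 2 of Ccr7 on enrichment (-0.41) and the interaction of S1pr1 (0.081). With the knockout enriched libraries 2 and 3 summed, the interaction of Ccr9 was 0.088.

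Leaving out 1 library at a time gave between 71 and 122 gene calls in the enriched libraries, 24 to 51 for the interaction, 16 to 27 for other miRNAs and 57 to 152 site calls in the enriched libraries. In the enriched libraries Klf2 then ran from -0.059 to 0.27, Ccr9 from -0.32 to 0.53, Ccr7 from -0.27 to 0.58 and site 2 of Ccr7 from -0.37 to 0.51. The interaction ran from -5.33 to 0.55 for S1pr1 and from -0.48 to 0.31 for Ccr9, and the difference of Ccr9 for other miRNAs from -0.048 to 0.31. The largest correlation of deviations between same-numbered libraries was 0.12, and with a replicate block the gene calls were 129 in the Ago2 IP, 100 in the enriched libraries, 1267 and 168 on enrichment in the wild type and the knockout, 50 for the interaction and 27 for other miRNAs. Depth limits the knockout enriched values, where 3 reads are 156 to 439 rpm.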
